A study of Homo sapiens with 8 samples.

Results

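The embryonic, fetal and alpha globins are 6 genes of the chromosome 11 and chromosome 16 globin clusters: HBE1 (epsilon), HBG1 and HBG2 (gamma), HBZ (zeta), and HBA1 and HBA2 (alpha). They were chosen by name, and their splice junction reads were compared in 8 libraries; 20725 genes in all had an annotated intron of their own with at least 1 unique read. A haemoglobin tetramer pairs chains of the alpha-like family (zeta, alpha) with chains of the beta-like family (epsilon, gamma). During development zeta and epsilon are made first, in primitive red cells of the yolk sac, and alpha and gamma follow in the fetus. K562, a human erythroleukaemia line, is known for making embryonic and fetal globins.

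Total RNA was sequenced from K562 cells with SF3B1 wild type or SF3B1 K700E, 2 libraries per genotype at day 4 and 2 at day 8. SF3B1, part of the U2 snRNP, takes part in branch point recognition and so in the choice of the acceptor, the 3′ end of an intron; K700E is its substitution seen repeatedly in leukaemia and myelodysplasia. All 4 groups are labelled as given doxycycline at 1 ug/ml, which induces the modified allele, so wild-type and K700E libraries share that agent. No label says that the 2 libraries of a group came from separate cultures, and p-values therefore measure only the spread between these libraries, which may be technical. The labels call the cells epithelial. The erythroid gene GATA1 was at 122 to 212 CPM (normalised unique reads per gene, counts-per-million) in the 8 libraries, and AHSP, the alpha globin chaperone, at 0 to 0.390 CPM. The epithelial genes KRT8 and EPCAM were at 166 to 1025 and 6.81 to 111 CPM, and CDH1, which defines epithelia, at 0 to 0.0418 CPM.

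The libraries held 49338071 to 77750812 unique junction reads and listed 211347 to 470900 junctions, fewest in the 2 libraries labelled wild type day 8. Acceptors known to respond to SF3B1 hotspot substitutions followed the labels at day 4 only. Over 6 known target genes, the median use of acceptors 10 to 30 nt upstream of an annotated one was 8.02% and 7.21% in wild type at day 4 and 62.0% and 58.4% in K700E. For day 8 the figures were 2.85% and 74.6% under the wild-type label and 13.3% and 67.2% under the K700E label. Wild type day 8 replicate 2 and K700E day 8 replicate 1 thus went against their labels. The aligner's logs put the day 4 libraries, the wild-type day 8 libraries and the K700E day 8 libraries in 3 different folders, so day, and genotype within day 8, cannot be told apart from whatever those folders stand for.

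The copies are so alike that many reads cannot be placed. The sequences across the exon joins are shown because they carry every count below. Each line is 30 bases of the exon before the intron and 30 bases of the exon after it, 5′ to 3′ on the coding strand, from the GENCODE release 29 transcripts on hg38. All are coding sequence. HBG1 and HBG2 have the same sequence at each join, as have HBA1 and HBA2, so each is printed once. Capitals in the HBE1 lines mark bases that differ from gamma, and capitals in the HBZ lines bases that differ from alpha.
HBG1 and HBG2, intron 1: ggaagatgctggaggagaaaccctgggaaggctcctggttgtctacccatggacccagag
HBE1, intron 1: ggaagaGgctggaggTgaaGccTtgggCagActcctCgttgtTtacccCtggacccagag
HBG1 and HBG2, intron 2: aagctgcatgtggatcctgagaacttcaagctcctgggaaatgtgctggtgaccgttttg
HBE1, intron 2: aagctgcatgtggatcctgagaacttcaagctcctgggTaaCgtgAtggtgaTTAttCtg
HBA1 and HBA2, intron 1: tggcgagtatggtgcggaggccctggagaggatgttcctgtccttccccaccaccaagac
HBZ, intron 1: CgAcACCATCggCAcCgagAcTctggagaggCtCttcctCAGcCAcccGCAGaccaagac
HBA1 and HBA2, intron 2: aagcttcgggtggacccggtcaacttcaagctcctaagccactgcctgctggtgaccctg
HBZ, intron 2: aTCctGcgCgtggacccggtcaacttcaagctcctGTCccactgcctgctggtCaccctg

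On hg38 the introns of HBG1 (ENSG00000213934.8) are chr11:5249591-5249712 and chr11:5248488-5249367, those of HBG2 (ENSG00000196565.14) chr11:5254515-5254636 and chr11:5253406-5254291, and those of HBE1 (ENSG00000213931.6) chr11:5269677-5269798 and chr11:5268598-5269453, all on the minus strand. The introns of HBZ (ENSG00000130656.4) are chr16:153005-153891 and chr16:154097-154271, those of HBA2 (ENSG00000188536.13) chr16:173008-173124 and chr16:173330-173471, and those of HBA1 (ENSG00000206172.8) chr16:176812-176928 and chr16:177134-177282, all on the plus strand.

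Epsilon differs from gamma at 9 of 60 bases at the first join and at 7 of 60 at the second, and zeta from alpha at 24 and 8. In the transcripts, HBG1 and HBG2 are identical for 100 bases on either side of intron 1. At intron 2 their nearest differences lie 89 bases before and 95 bases after the join. HBA1 and HBA2 have no difference within 100 bases of either join, and HBZ shares its joins with the pseudogene HBZP1 up to a difference 74 bases before intron 1 and 80 bases after intron 2. Of the reads listed at each junction over the 8 libraries, multi-mapped reads made up 93.3% to 98.4% in HBA1 and HBA2. The share was 94.6% at HBG1 intron 1, 74.7% at HBG2 intron 1 and 60.9% to 67.2% at the gamma second introns. HBZ stood at 50.2% and 28.01%, and HBE1, which has no such copy, at 0.0857% and 0.0969%. HBE1 is therefore the member that was read almost entirely by unique reads. The aligner also listed HBG2 exon 2 joined to HBG1 exon 3 (chr11:5248488-5254291), with 0 to 3 unique and up to 49736 multi-mapped reads per library.

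Levels are given as junction reads-per-million (RPM; the total being unique junction reads), per intron, which does not depend on gene length. For the copy pairs they sum the unique reads of both copies and the larger of their multi-mapped counts, so that a shared read is not counted for each copy. In bulk RNA, fewer cells that make a globin and less globin RNA per cell cannot be told apart.

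Among the beta-like genes, the gamma pair was the most abundant in 7 of the 8 libraries, all but wild type day 8 replicate 2, where epsilon was slightly higher. HBG1 and HBG2 together stood at 1517 and 1410 RPM per intron in wild type at day 4, at 1253 and 172 in K700E at day 4, at 93.2 and 24.0 under the wild-type label at day 8, and at 180 and 266 under the K700E label at day 8. The second K700E library at day 4 was low, 7.28 times below its replicate, while the other day 4 libraries were close. Both K700E libraries lay below both wild-type libraries at day 4 and above both at day 8. In unique reads, 27.3% of all genes lay below in this way at day 4 and 17% above at day 8.

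HBE1 encodes the embryonic beta-like chain. It stood at 36.3 and 38.3 RPM per intron in wild type and 53.9 and 34.8 in K700E at day 4, and at 8.76 and 25.8 under the wild-type label and 21.9 and 18.2 under the K700E label at day 8. The genotypes overlapped on both days, and all 4 day 8 libraries lay below all 4 day 4 libraries. The second K700E library, low in gamma, was close to wild type in HBE1.

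HBZ encodes the embryonic alpha-like chain. It stood at 22.3 and 16.0 in wild type and 29.01 and 5.39 in K700E at day 4, and at 1.25 and 3.17 under the wild-type label and 1.61 and 7.33 under the K700E label at day 8. It was the lowest of the 4 kinds of chain in each of the 8 libraries. Again the second K700E library at day 4 was 5.38 times below its replicate.

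HBA1 and HBA2 encode the same alpha chain. Together they stood at 105 and 113 in wild type and 214 and 39.0 in K700E at day 4, with 1 K700E library above and 1 below wild type. At day 8 they stood at 6.52 and 8.89 under the wild-type label and 13.2 and 37.5 under the K700E label, and the groups did not overlap. In unique reads, 31.9% of all genes did not overlap at day 8, and 17% had both K700E libraries above. In unique reads HBA1 overlapped (1.62 and 0.72 against 1.25 and 4.49 CPM), as did HBA2 (1.81 and 1.04 against 1.46 and 5.33 CPM). The order gamma, alpha, epsilon, zeta held in all 4 day 4 libraries, although alpha and epsilon were close in the second K700E library, at 39.0 and 34.8. At day 8 alpha lay below epsilon in 3 of 4 libraries, and in wild type replicate 2 epsilon and gamma were nearly level, at 25.8 and 24.0. The reads of the 6 genes, unique and multi-mapped, were set against the unique junction total. They came to 0.336%, 0.315%, 0.310% and 0.0503% of it in the day 4 libraries, in the order above, and 0.0124% to 0.0657% at day 8. That total leaves out multi-mapped reads, so these values are not shares of all junction reads.

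**Figure D1:**
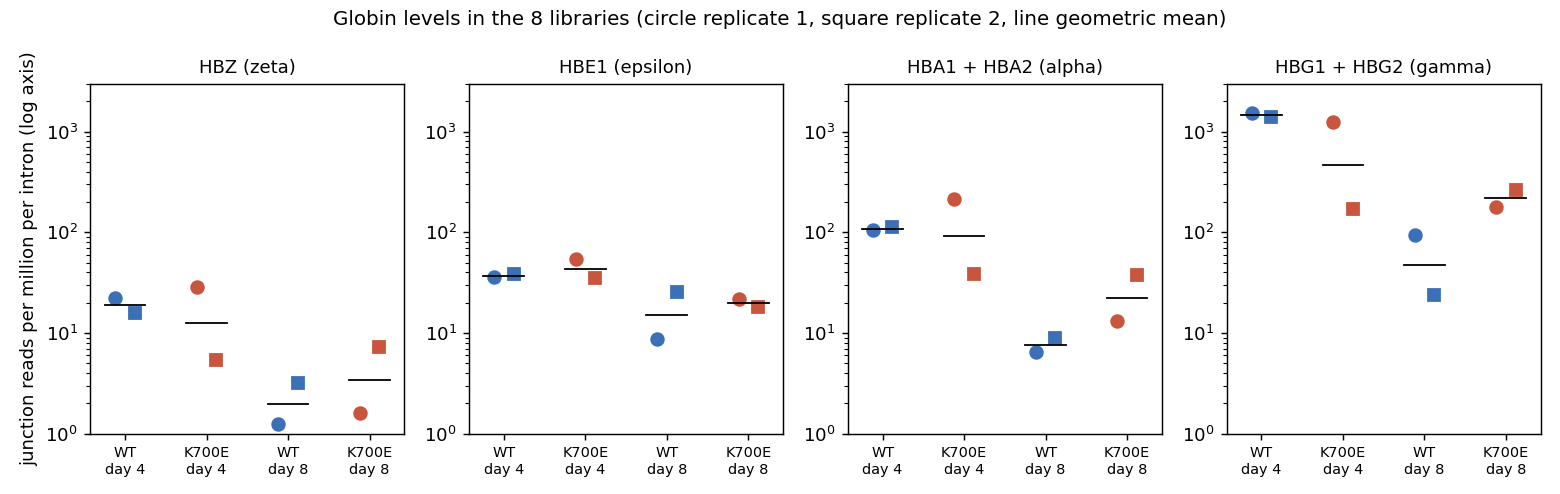
Junction reads-per-million (RPM) per intron, on a log axis, for zeta, epsilon, alpha and gamma globin in the 4 groups; circles are replicate 1, squares replicate 2, and each line is the geometric mean of 2 libraries. The second K700E library at day 4 lies below the other day 4 libraries in zeta, alpha and gamma but close to wild type in epsilon (34.8 against 36.3 and 38.3).

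At day 4, none of the 6 globins passed the threshold between K700E and wild type in edgeR's quasi-likelihood test on unique reads, with Benjamini-Hochberg adjustment over 13995 genes. The background was 73 genes called, or 0.522% of those tested (32 higher, 41 lower). The unadjusted p was under 0.05 for 0 of the 6 and for 21.3% of genes, and DESeq2's test called 1640 genes and none of the 6. HBG2 was at 972 and 951 CPM in wild type and 743 and 82.4 in K700E (log2 change -1.22, SE 0.89, adjusted p 0.484). HBG1 was at 357 and 305 against 303 and 52.0 CPM (-0.90, SE 0.73, adjusted p 0.530), and the gamma sum gave -1.15 (SE 0.81, adjusted p 0.468). Tests of a copy sum, here and below, add the larger multi-mapped count of the pair to the unique reads of both. HBE1 was at 83.6 and 91.0 against 117 and 76.4 CPM (0.15, SE 0.22, adjusted p 0.736). In gamma the first K700E library was near wild type and the second far below it, whereas in HBE1 the K700E libraries lay on either side of wild type. The log2 change was -0.32 in HBZ (SE 0.65, adjusted p 0.820), 0.20 in HBA2 (SE 0.72, adjusted p 0.903), 0.05 in HBA1 (SE 0.69, adjusted p 0.979) and 0.11 in the alpha sum (SE 0.70, adjusted p 0.952). Both K700E libraries lay below both wild-type libraries in HBG1 and HBG2, 2 of the 6, and in 27.3% of all genes; the groups overlapped in the other 4 globins, while 54.8% of genes did not overlap, with 27.5% above wild type.

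The 2 K700E libraries lay far apart in gamma, alpha and zeta. HBG2 differed by 3.16 on the log2 scale between them, a gap exceeded by 1.85% of genes, and HBG1 by 2.53. HBZ, HBA1 and HBA2 differed by 2.16 to 2.34, and HBE1 by 0.60, a gap exceeded by 26.4% of genes; the median gap over all genes was 0.29. Between the wild-type libraries the gap was 0.04 in HBG2, 0.12 in HBE1, 0.23 in HBG1, 0.30 in HBZ, 0.62 in HBA2 and 0.71 in HBA1 (median over all genes 0.22). In each of the 6 the gap was larger in K700E.

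Leaving out 1 K700E library decided the day 4 result. Without K700E replicate 1, 5 of the 6 globins were called lower, all but HBE1: HBG2 by -3.54 (SE 0.20), HBG1 by -2.67, HBZ by -1.81 and HBA1 and HBA2 by -1.41 each. Of 14420 genes, 2518 were called in that fit. Without K700E replicate 2, HBA2 alone was called, higher by 0.93 (adjusted p 0.038), the alpha sum was higher by 0.85 (adjusted p 0.0035), HBG2 gave -0.38 (adjusted p 0.179), and 1256 of 14687 genes were called in all. Without wild type replicate 1, and without replicate 2, 0 genes were called (1439 and 1437 at an unadjusted p under 0.05, no globin). In these fits the lone library is assumed to vary like the other groups. The direction for alpha, zeta and epsilon therefore turned with the K700E library that was left out. In HBE1 the change was -0.19 without K700E replicate 1 and 0.41 without replicate 2. Gamma stayed below wild type in both fits, though by very different amounts (-3.54 and -0.38 in HBG2).

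**Figure D2:**
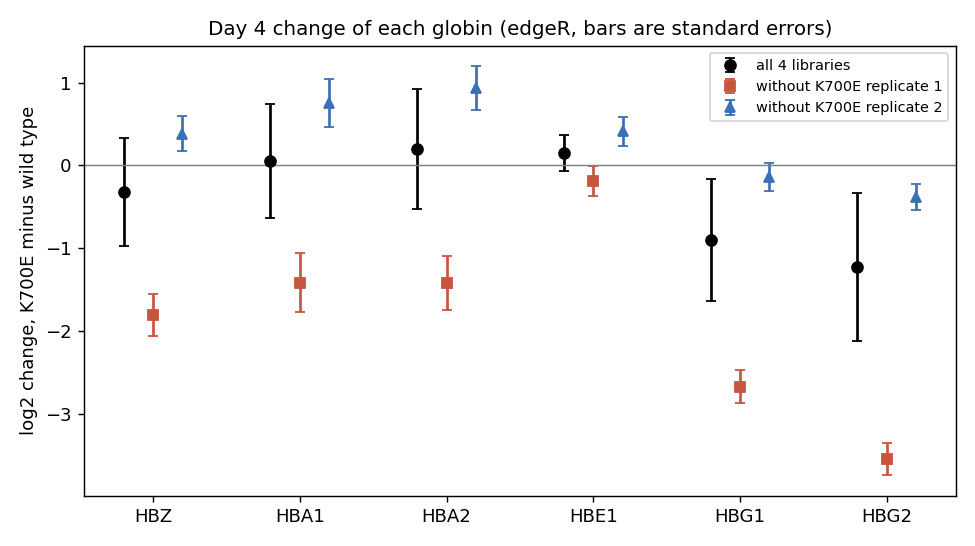
Log2 change at day 4, K700E minus wild type, for each globin by edgeR, with standard errors, in all 4 libraries and with either K700E library left out. HBG2 moves from -1.22 with all libraries to -3.54 without K700E replicate 1 and to -0.38 without K700E replicate 2, while HBE1 stays between -0.19 and 0.41.

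At day 8, under the labels as given, edgeR called 0 of 13995 genes (0% background; 409 genes, or 2.92%, at an unadjusted p under 0.05, HBG1 and HBG2 among them; DESeq2's test called 20 genes and no globin). HBG1 was 1.88 higher on the log2 scale in K700E (SE 0.61, unadjusted p 0.027) and HBG2 2.20 higher (SE 0.77, unadjusted p 0.035), neither past the threshold after adjustment (adjusted p 0.9998 by edgeR). The alpha sum gave 1.70 (SE 0.52, unadjusted p 0.022), HBA2 alone 1.20 (SE 0.80, unadjusted p 0.19) and HBA1 alone 1.25 (SE 0.86, unadjusted p 0.21). The sum includes multi-mapped reads, whereas the single copies were tested on unique reads only. Without K700E replicate 2 the sum fell to 0.82, HBA2 to 0.0056 and HBA1 to 0.067. The change was 0.79 in HBZ (SE 0.77) and 0.23 in HBE1 (SE 0.53). Both libraries labelled K700E lay above both labelled wild type in HBG1 and HBG2, as in 17% of all genes; no globin had both below, against 14.9% of genes, and 31.9% did not overlap. Only wild type replicate 1 and K700E replicate 2 followed their labels, which leaves 1 library against 1 and no test. They stood at 93.2 and 266 in gamma, 6.52 and 37.5 in alpha, 1.25 and 7.33 in zeta and 8.76 and 18.2 in epsilon. The other pair, wild type replicate 2 and K700E replicate 1, stood at 24.0 and 180 in gamma and at 25.8 and 21.9 in epsilon.

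The difference between days in the K700E effect was tested in 1 model of 8 libraries, and 0 of 14906 genes passed (0%; 1372 genes, or 9.2%, at an unadjusted p under 0.05, HBG1 and HBG2 among them; DESeq2's test called 193 and no globin). The gamma effect was 3.12 higher at day 8 than at day 4 on the log2 scale (SE 1.26, unadjusted p 0.042, adjusted p 0.537), and HBE1's 0.12 higher (SE 0.65). For the mean of both days, edgeR also called 0 of 14906 genes (0%; 1382, or 9.27%, at an unadjusted p under 0.05 and no globin among them; DESeq2's test called 107), and the 6 globins' changes ran from 0.19 to 0.72 with adjusted p from 0.714 to 0.912. These directions rested on single libraries. Without K700E day 4 replicate 1 the change was -0.65 in HBG2, -0.37 in HBG1, -0.49 in HBZ, -0.089 in HBA2 and -0.066 in HBA1. Without K700E day 8 replicate 2 it was -0.40 in HBZ, and without wild type day 8 replicate 1 it was -0.092 in HBE1.

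All 6 globins were lower at day 8 than at day 4 over both genotypes, past the threshold in edgeR. The background was high: 36% of 14906 genes were called, 18.1% higher and 18% lower, and 46.3% had an unadjusted p under 0.05. The gamma sum was lower by a log2 change of -3.33 (SE 0.68, adjusted p 0.0085), the alpha sum by -3.25 (SE 0.56, adjusted p 0.0048), HBZ by -2.89 (SE 0.60, adjusted p 0.0096) and HBE1 by -1.30 (SE 0.33, adjusted p 0.020). Single copies gave -3.56 in HBG2, -2.76 in HBG1, -2.55 in HBA2 and -2.25 in HBA1, with adjusted p from 0.010 to 0.028. In unique reads all 4 day 8 libraries lay below all 4 day 4 libraries in HBE1 alone of the 6, and in 17.7% of genes; in levels with multi-mapped reads this also held for the alpha sum (39.0 against 37.5 at the nearest); in gamma and zeta the second K700E library at day 4 fell below the highest day 8 library. With 1 library left out at a time, the change ran from -4.34 to -2.42 in HBG2, -3.33 to -1.89 in HBG1 and -3.55 to -2.16 in HBZ. It ran from -3.17 to -1.76 in HBA2, -2.87 to -1.54 in HBA1 and -1.79 to -1.02 in HBE1. HBA1, HBE1 and HBA2 did not stay past the threshold in every such fit. Leaving out the 2 day 8 libraries that went against their labels leaves 1 library in each day 8 group, so only the changes are given. They were -2.78 in HBZ, -1.88 in HBE1, -2.36 in HBG1 and -3.08 in HBG2. HBA1 gave -1.71, HBA2 -2.06 and the alpha sum -3.10.

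The range over the 8 libraries was wide. HBG2's highest library was 115 times its lowest in normalised unique reads, a range exceeded by 4.08% of genes, and HBG1's 42.2 times. HBZ, HBA1 and HBA2 ranged 19.99 to 22.3 times and HBE1 6.70 times, against a median of 3.10 over all genes tested.

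Ratios between globins are taken within a library and do not depend on its total. Gamma to epsilon stood at 41.8 and 36.8 in wild type and 23.2 and 4.94 in K700E at day 4, and at 10.6 and 0.929 under the wild-type label and 8.25 and 14.6 under the K700E label at day 8. The day 4 groups did not overlap and the day 8 groups did. Gamma to alpha stood at 14.5 and 12.5 in wild type and 5.86 and 4.42 in K700E at day 4, and at 14.3 and 2.699 against 13.7 and 7.08 at day 8. K700E at day 4 was lower by 1.40 in mean log2 ratio, and unlike the gamma level itself this ratio was close in its 2 libraries.

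Summed over each family, alpha-like (zeta plus alpha) to beta-like (epsilon plus gamma) reads stood at 0.0819 and 0.0888 in wild type and 0.186 and 0.214 in K700E at day 4. The K700E libraries were higher by 1.23 in mean log2 ratio, with an SD of 0.08 in wild type and 0.15 in K700E (n = 2 each). At day 8 it stood at 0.0762 and 0.242 under the wild-type label and 0.0731 and 0.158 under the K700E label. The higher value of each day 8 group was in its second library, and those are the 2 day 8 libraries with high use of the known target acceptors. The part of that use in the ratio was not tested. Beta-like reads outnumbered alpha-like reads in all 8 libraries.

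Zeta to alpha, both alpha-like, stood at 0.213 and 0.142 in wild type and 0.136 and 0.138 in K700E at day 4, and at 0.191 and 0.356 against 0.122 and 0.195 at day 8. Epsilon to zeta, the 2 embryonic chains, stood at 1.63 and 2.40 against 1.86 and 6.47 at day 4 and at 7.03 and 8.15 against 13.6 and 2.49 at day 8. In these 2 ratios the genotypes were close or overlapped, apart from a gap at day 4 in zeta to alpha that was small beside the distance between the wild-type libraries.

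Between the gamma copies, HBG1 to HBG2 in unique reads stood at 0.367 and 0.321 in wild type and 0.407 and 0.631 in K700E at day 4, and at 0.695 and 1.00 under the wild-type label and 0.622 and 0.583 under the K700E label at day 8. With the reads of both introns pooled, K700E was above wild type at day 4 and below it at day 8, without overlap on either day. Intron 2 alone gave the same order. From intron 1 alone the groups overlapped on both days, at 0.133 and 0.146 against 0.141 and 0.217 at day 4. At day 8 they stood at 0.215 and 0.433 against 0.260 and 0.256. The introns also differed in level, at 0.133 and 0.612 in wild type day 4 replicate 1. The ratio was higher in each day 8 library than in the 3 day 4 libraries with high gamma, and the second K700E library at day 4, low in gamma, had 0.631. HBA1 to HBA2 stood at 0.631 to 0.894 in the 8 libraries. These copy ratios rest on the reads that were placed in 1 copy, so they are ratios of placeable reads and not of the transcripts. At intron 1 the gamma transcripts have no difference within 100 bases. There HBG2 had 93555 unique reads and HBG1 14264 over the 8 libraries, and the reason for that gap was not tested.

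In exact two-sided permutation tests, none of the 7 ratios passed at either day or over both. With 2 libraries against 2, the smallest p that can be reached is 0.3333, and over both days, with labels permuted within day, it is 0.0556, so none could pass 0.05. This p was reached at day 4 by gamma to epsilon, gamma to alpha, alpha-like to beta-like, zeta to alpha and HBG1 to HBG2 (Benjamini-Hochberg adjusted over the 7 ratios, 0.467 each). Over both days the lowest p was 0.111 for zeta to alpha, adjusted 0.778, lower by 0.55 in mean log2 ratio in K700E.

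**Figure D3:**
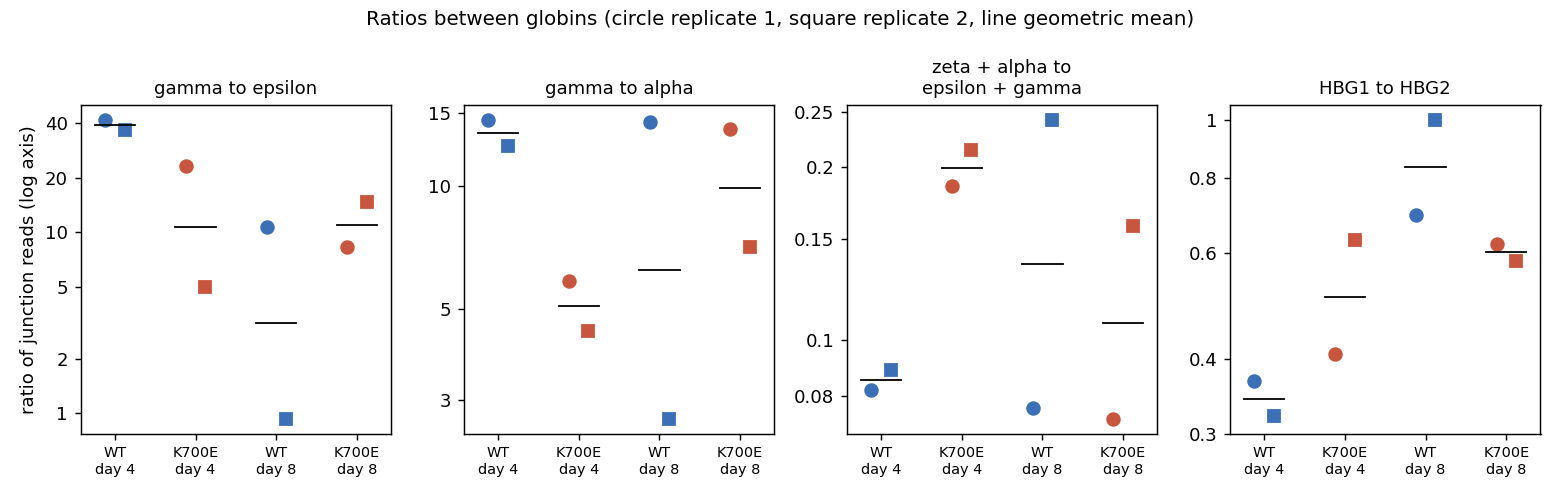
Shown are 4 of the 7 ratios between globins in each library (log axes): gamma to epsilon, gamma to alpha, alpha-like to beta-like and HBG1 to HBG2. Circles are replicate 1, squares replicate 2 and lines the geometric mean. At day 4 the K700E libraries lie apart from wild type in all 4 panels, for example at 5.86 and 4.42 against 14.5 and 12.5 in gamma to alpha. All 4 panels use gamma reads, and 54.8% of all genes also had day 4 groups that did not overlap. Of the ratios not drawn, zeta to alpha lay apart at day 4, while epsilon to zeta and HBA1 to HBA2 overlapped. HBG1 to HBG2 overlapped from intron 1 alone.

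Both coding introns were read in each gene, and their ratio varied most in the alpha pair. Reads across intron 2 per read across intron 1 had a median of 0.959 in HBE1 (0.753 to 1.07), 1.04 in HBZ (0.806 to 1.15), 0.749 in the gamma pair (0.668 to 0.884) and 0.766 in the alpha pair (0.493 to 0.976, both ends at day 8). No junction was listed from any of the 12 coding donors to an acceptor 1 to 50 nt upstream of the coding one, the window in which acceptors activated by SF3B1 K700E are known to lie. The donors held 487 unique reads over the 8 libraries at HBA1 intron 2, the lowest, and 93555 at HBG2 intron 1, the highest.

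Minor sites near the coding ones were used at low levels. HBE1 has an acceptor 28 nt downstream of the coding one in intron 1 (chr11:5269649-5269798). Its use was 3.66% and 4.31% in wild type and 4.44% and 3.92% in K700E at day 4, and 3.38% and 1.10% under the wild-type label and 1.71% and 1.88% under the K700E label at day 8. All 4 day 8 libraries lay below all 4 day 4 libraries (exact 95% binomial interval 3.84% to 5.09% at the highest and 0.671% to 1.69% at the lowest, counting error only), although the highest day 8 value, from 21 of 622 reads, has an interval of 2.10% to 5.11% that takes in the day 4 values. The mean difference was -2.07 percentage points (exact permutation p 0.0556, the smallest possible, adjusted 0.3333 over 6 tests on HBE1), and K700E differed from wild type by -0.12 points (exact p 0.944).

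The other minor sites are donors in the first exon. A donor 49 nt upstream took 0% to 4.58% of unique reads in HBA2 and 0% to 3.89% in HBA1. A donor 38 nt upstream took 0% to 0.717% in HBG1 and 0% to 1.55% in HBG2, the highest value from 4 of 258 reads. With multi-mapped reads the highest share was 9.62% in HBA2, in wild type day 8 replicate 2. At day 8 these sites had between 0 and 6 unique reads per library, too few to compare.

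Among acceptors that share a donor, edgeR's diffSpliceDGE test at day 4 called 331 of 70047 junctions (0.473%). At the globin genes, 12 junctions could be tested, all of them at HBE1, and 0 were called (adjusted p 1.00 for each, unadjusted p from 0.408 to 0.989). For the coding HBE1 acceptor the change in use was -0.20 percentage points. The alpha, gamma and zeta introns had no second acceptor with enough unique reads, so acceptor choice there was not tested.

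HBE1 had a second kind of transcript, spliced from far upstream. The shortest annotated transcript starts at chr11:5269945, and HBE1-201 and HBE1-202 have a longer first coding exon that begins with an acceptor 211 nt upstream of that start. Unique reads spliced into this acceptor numbered 1752 and 2644 in wild type and 3331 and 1990 in K700E at day 4, and 642 and 1401 under the wild-type label and 733 and 873 under the K700E label at day 8. Per read across intron 1 this was 0.774, 0.923, 0.805 and 0.864 at day 4, and 1.07, 0.777, 0.607 and 0.760 at day 8, in the same order. In each library such reads were within a factor of 2 of those across the coding intron 1. K700E differed from wild type by -0.22 in mean log2 ratio (exact permutation p 0.278, adjusted 0.556), and day 8 from day 4 by -0.09 (exact p 0.667).

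The 5 largest donors supplied most of these reads. The largest, 235624 nt upstream of that start, is the end of an annotated exon shared by HBE1-201 and HBE1-202, and gave 34.9% of the reads over the 8 libraries. Annotated donors 11964 and 75828 nt upstream gave 23.7% and 20.5%. Of the reads into the exon at 11964 nt, 59.96% to 76.5% per library came in turn from the most distant exons. Unannotated junctions from donors 235406 and 8404 nt upstream gave 9.47% and 8.40%. The donor 235406 nt upstream is itself the end of an annotated exon, the first of HBG2-202, and only its junction to HBE1 is unannotated. Donors over 200 kb upstream together gave 50.1% and 47.5% in wild type and 44.3% and 44.8% in K700E at day 4, and 50.2% and 35.1% against 39.8% and 42.4% at day 8. K700E was lower at day 4 without overlap, and over both days the difference of -2.89 percentage points was within the spread (exact permutation p 0.5, adjusted 0.75).

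**Figure D4:**
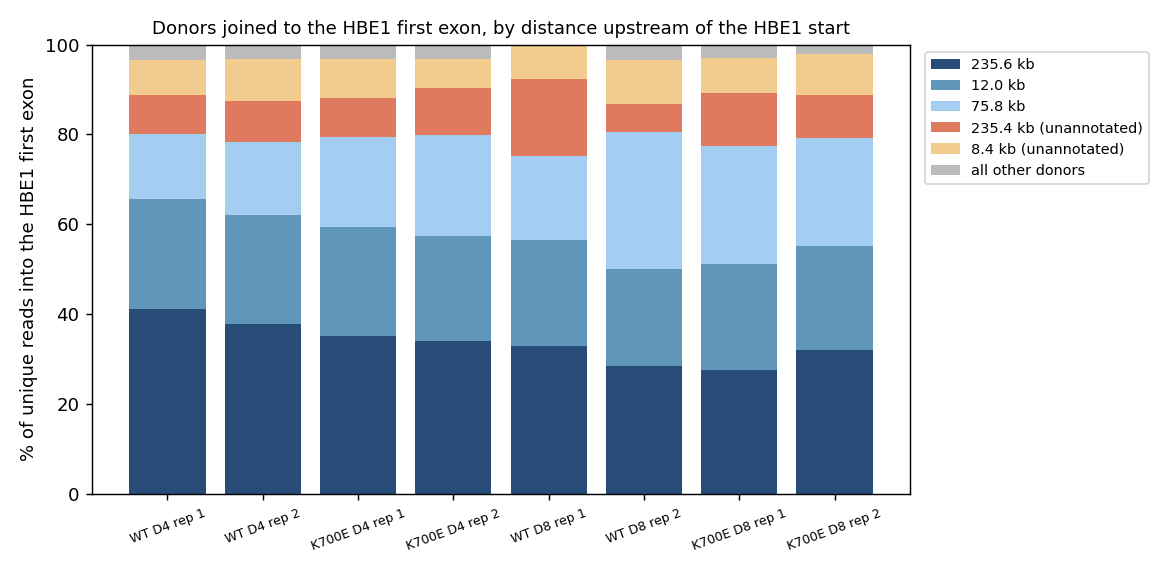
Share of unique reads into the acceptor of the long HBE1 first exon that come from each donor, by library, as stacked bars from 0 to 100%. Donors are named by their distance upstream of the HBE1 start, and unannotated refers to the junction. The donor 235624 nt upstream ranges from 41.1% in the first wild-type library at day 4 to 27.6% in the first K700E library at day 8, and the same 5 donors lead in each library.

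Unannotated splicing at the other globins was rare. In all, 195 unannotated junctions with an end in a member gene carried 3311 unique reads, against 314857 at 28 annotated ones, and 18 of them, at the long HBE1 first exon, carried 2788. Of the 10 unannotated junctions with most reads, 9 involved HBE1. The most used joined that acceptor to the donors 235406 nt (1266 reads) and 8404 nt upstream (1123 reads). The tenth joined HBG2's intron 1 acceptor to the donor of the exon over 235 kb upstream of HBE1, with 35 reads, 20 of them in wild type day 8 replicate 1.

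Genes that regulate globins were taken from a list of 40 transcription factors, chromatin proteins and RNA-binding proteins, and all 40 were tested at day 4. None was called (background 0.522%; 5 at an unadjusted p under 0.05 in edgeR), and the median log2 change was 0.12 beside 0.02 over all genes. The 4 largest changes were in SOX6, a gamma repressor, BCL11A, the main gamma repressor of adult cells, ZFPM1, the cofactor of GATA1, and NFE2, an activator at the globin enhancers. SOX6 stood at 0.114 and 0.404 CPM in wild type and 0.795 and 0.467 in K700E, and BCL11A at 3.22 and 7.52 against 0.599 and 4.03. ZFPM1 stood at 8.37 and 5.55 against 18.3 and 12.4 CPM (log2 change 1.15, SE 0.31, adjusted p 0.140) and NFE2 at 26.6 and 21.7 against 17.4 and 9.10 (-0.86, SE 0.34, adjusted p 0.229). The second K700E library had the lowest NFE2 of the 4, as it had of gamma; its part in the globin values was not tested.

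Of 23 genes of haem synthesis, iron supply and haemoglobin assembly, 21 were tested at day 4, and 2 were called, both lower (background 0.293% lower), with a median log2 change of -0.55 beside 0.02 over all genes. At day 8, 0 were called and the median was 0.23, in the other direction. CPOX, a late enzyme of haem synthesis, was called, at 116 and 116 CPM in wild type and 50.6 and 44.4 in K700E (log2 change -1.29, SE 0.13, adjusted p 0.034). SLC25A38, the mitochondrial glycine carrier, stood at 45.3 and 57.0 against 17.3 and 19.8 (-1.46, adjusted p 0.058), and ALAS2, the first enzyme of haem synthesis in red cells, at 621 and 485 against 341 and 142 (-1.19, adjusted p 0.186). CPOX was close in the 2 K700E libraries; ALAS2 was lowest in the second, as gamma, alpha and zeta were.

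Of 8 other globins listed, 4 were tested at day 4 and 0 were called. HBD, the delta chain, stood at 24.8 and 23.8 CPM in wild type and 16.1 and 16.3 in K700E (-0.58, SE 0.17, adjusted p 0.154), with the K700E replicates close. HBQ1, the theta chain, stood at 2.52 and 2.25 against 2.30 and 1.87, the pseudogene HBBP1 at 1.65 and 1.29 against 1.73 and 0.400, and the pseudogene HBZP1, whose reads are hard to tell from those of HBZ, at 0.663 and 0.696 against 0.767 and 0.0833. Delta was as high in the second K700E library as in the first, and the pseudogenes were lowest in the second, as gamma, alpha and zeta were.

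Marker lists of cell types were read beside the globins. Of 13 erythroid markers, 12 were tested at day 4 and 0 were called (3 at an unadjusted p under 0.05, where 21.3% of all genes stood), with a median log2 change of -0.41 at day 4 and 0.04 at day 8. Their summed level was 2642 and 2255 CPM in wild type and 2197 and 1396 in K700E, lowest in the second K700E library, as for the globins. TFRC (1175 and 914 against 979 and 611) and ALAS2 made up most of that sum. Of the 12 tested, 5 lay below wild type in both K700E libraries and 1, GATA1, above (134 and 122 against 161 and 148). The shares over all genes were 27.3% and 27.5%. Of 10 megakaryocyte markers, 4 were tested at day 4 and 1 was called, where 0.522% of all genes were. ITGA2B, the platelet integrin alpha chain, was at 11.9 and 21.1 CPM in wild type and 99.2 and 100.02 in K700E (log2 change 2.60, SE 0.29, adjusted p 0.042 by edgeR). At day 8 ITGA2B stood at 92.9 and 68.1 CPM under the wild-type label and 33.2 and 479 under the K700E label, and was not called. The other 3 tested at day 4 were THBS1 at 0.436 and 2.39 against 26.9 and 22.8 CPM (4.13, adjusted p 0.087), ITGB3 at 0.265 and 0.259 against 1.51 and 1.27 CPM (2.40, adjusted p 0.094) and PPBP at 0 and 0.243 against 0.112 and 1.75 CPM (adjusted p 0.382). The summed megakaryocyte list was 12.6 and 24.1 CPM against 127.9 and 127.2, with PF4, VWF and GP1BA at 0 in all but 1 to 3 libraries. Of 8 epithelial markers, 6 were tested and 0 called (4 at an unadjusted p under 0.05), with a median log2 change of -0.68, and of 7 myeloid and 7 lymphoid markers, 3 and 4 were tested and 0 called. The part of these markers in the globin values was not tested.

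The genes most like each globin over the 8 libraries were found among 8031 genes with a mean of at least 10 CPM, by Pearson's r of log2 CPM. They were FANCB (r 0.981), MTFR1 (0.974) and RCCD1 (0.973) for HBE1. For HBZ they were PLIN2 (0.977), FOXK2 (0.973) and DYNC1LI2 (0.969), and for the alpha sum PLIN2 (0.983), TENT2 (0.974) and LONRF3 (0.968). For the gamma sum they were COX7C (0.973), RTN4 (0.972) and FAM177A1 (0.969). These are descriptions over 8 points that share libraries and the day difference, and 75 to 275 genes per globin had r above 0.9. Among the globins themselves, r was 0.968 between zeta and alpha, 0.913 between gamma and alpha and 0.650 between gamma and epsilon.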

How the data were processed

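Strand-specific libraries were made from total RNA, per the labels' protocols. The submitters' processing notes name cutadapt, STAR and the build hg38, and the file headers give STAR 2.7.0e with GENCODE release 29 in the index. The deposited values are raw counts per splice junction, 1 column for reads mapped uniquely and 1 for multi-mapped reads; a multi-mapped read is listed at each junction it reaches. Canonical junctions outside the annotation were listed from 1 unique read with 12 nt on each side, per the file headers. The files' motif, strand and annotation codes and maximum overhang were deposited beside these counts and used only as descriptions.

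Unique reads over annotated introns of 1 gene were summed per gene. The 6 globins were counted over their 2 coding introns instead, a choice made after the files were seen, because read-through loci share those of HBG2. Tests used edgeR 4.0.16 (filterByExpr, TMM, quasi-likelihood, adjusted p under 0.05 by Benjamini-Hochberg), with DESeq2 1.42.0 and limma 3.58.1 as alternatives. Each day was fitted alone (4 libraries), and both days in 1 model of 4 groups. A junction was tested against others of its donor with 5 unique reads in at least 2 libraries and a mean of 20 at the donor, and called at 5 percentage points or more. Ratios were tested by exact permutation. Depth was 49338071 to 77750812 unique reads per library.

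The members, gene lists and tests were chosen with earlier results of these data known, and the tests of HBE1's upstream reads and 28 nt acceptor were added after the values were seen. Genes named from the lists of globin regulators, haem genes and other globins are those called at day 4 and the 4 with the largest change, apart from what is not reported here; the marker genes of cell types named were chosen after their values were seen. Replicate numbers were not treated as pairs: deviations of same-numbered libraries correlated at -0.20 to 0.28.

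The steps were tested on simulated data. For acceptors, a first simulation changed acceptors of any use, and few of those changes were recovered. A second, with little-used acceptors raised by moderate or large factors, was added after the first; large rises were mostly recovered and moderate ones mostly not. The absence of calls at the globin acceptors therefore says little about moderate changes or about well-used acceptors.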

Additional observations from a re-analysis of the deposited data

Results flagged for a closer look

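The ratio of HBG1 to HBG2 in unique reads, both introns pooled, moved in opposite directions on the 2 days. Both K700E libraries lay above both wild-type libraries at day 4 (0.407 and 0.631 against 0.367 and 0.321). They lay below both at day 8 (0.622 and 0.583 against 0.695 and 1.00). Intron 2 alone gave this order, while from intron 1 alone the groups overlapped on both days. The K700E difference in mean log2 ratio was lower by 1.03 at day 8 than at day 4 (-1.03), from 0.56 to -0.47. With 1 library left out the day 4 value ran from 0.25 (without K700E replicate 2) to 0.88 (without K700E replicate 1) and the day 8 value from -0.73 (without wild type replicate 1) to -0.21 (without wild type replicate 2). This difference between days was not tested, and 1 library of each day 8 group went against its label.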

How the results depend on the processing

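At day 4 the 73 genes called became 1640 with DESeq2's test, 1566 with no filter on low counts, 126 with the replicate block (126 with the copies summed), 0 with all 8 libraries in 1 model (0 with the copies summed) and 0 to 2518 with 1 library left out (with the copies summed, 2492 without K700E replicate 1 and 1248 without replicate 2). At day 8, for the mean of both days and for the interaction, 0 genes called became 20, 107 and 193 with DESeq2, and 0, 41 and 100 with no filter; with 1 library left out each stayed at 0. The 5371 genes called between days became 2899 to 5988 with 1 library left out. The 331 acceptors called became 535 with no minimum size and 8 to 111 with 1 library left out. No ratio could pass 0.05 in this design under any alternative, which says nothing about stability. The replicate numbers share only a number; with the block, 250 acceptors were called in place of 331 and 5277 genes between days in place of 5371, and no globin gained or lost a call.

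For single globins, 421 alternatives were counted at day 4, at day 8, for the interaction and between days, leaving out the mean of both days. Of these, 378 kept direction and side of the threshold and 23 changed sign. No globin was called at day 4, at day 8 or for the interaction in the main fits. Keeping that side of the threshold therefore says little about stability there. Of 188 alternatives for single ratios, 165 kept both and 23 changed sign. At day 4 the replicate block gave -0.19 for HBA2, -0.26 for HBA1 and -0.35 for the alpha sum, and intron 2 alone gave -0.0070 for HBA1. Over both days, gamma to epsilon was 0.063 with intron 2 alone and 0.038 with unique reads, and HBA1 to HBA2 was -0.046 with intron 1 alone. With 1 library left out, the log2 change at day 4 ran from -1.81 to 0.39 in HBZ (-1.92 to 0.48 with the copies summed), -1.41 to 0.93 in HBA2, -1.41 to 0.75 in HBA1, -0.19 to 0.41 in HBE1 and -1.57 to 0.85 in the alpha sum. At day 8 it ran from -0.49 to 1.47 in HBZ (-0.40 to 1.82 with the copies summed) and -0.34 to 1.20 in HBE1. The interaction ran from -0.15 to 2.63 in HBZ, -0.17 to 2.66 in HBA2 and -0.45 to 1.11 in HBE1. The mean log2 difference of the ratios ran, for epsilon to zeta, from -0.087 to 1.71 at day 4, -1.60 to 0.84 at day 8 and -0.40 to 0.83 over both. It ran from -0.91 to 0.84 over both days in gamma to epsilon, -1.17 to 0.50 at day 8 in alpha-like to beta-like, and -0.54 to 1.87 at day 8 and -0.97 to 0.23 over both in gamma to alpha. In HBG1 to HBG2 it ran from 0.25 to 0.88 at day 4, -0.73 to -0.21 at day 8 and -0.11 to 0.20 over both, and in HBA1 to HBA2 from -0.17 to 0.014 at day 4, -0.073 to 0.30 at day 8 and -0.075 to 0.11 over both. At HBE1, upstream reads between days ran from -0.21 to 0.021, the distant exon share by genotype from -6.65 to 0.87 points and the 28 nt acceptor by genotype from -0.69 to 0.45 points. The cause of these shifts was not tested, beyond the loss of 1 library. With the introns of 1 gene only, HBG2 between days was -1.83 (adjusted p 0.359), since 1 minor intron then stands for it. Depth limits alpha most: HBA1 had 45 to 1061 unique reads per library.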
